A study of Mus musculus with 9 samples.

Results

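Ear RNA of Mdl-1-/- mice given interleukin 23 (IL-23) DNA was compared with ear RNA of wild-type mice given green fluorescent protein (GFP) DNA. All mice were C57BL/6 and 10 weeks old. Each had received 15 µg of minicircle DNA, a small circle that lacks the bacterial backbone, through the tail vein by hydrodynamic injection. The comparison takes 6 of the 9 libraries of the series: 3 from Mdl-1-/- mice with IL-23 DNA (the knockout group) and 3 from wild-type mice with GFP DNA (the GFP group). The other 3 libraries, from wild-type mice with IL-23 DNA, entered the fit for the spread and serve as a point of reference. Genotype and DNA both differ between the knockout and GFP groups. No library holds Mdl-1-/- mice with GFP DNA, so effects of the deletion and of IL-23 cannot be told apart here. Whether each of the 3 libraries of a group is its own animal is not in the labels, and the p-values describe only the spread among libraries, which may be technical. The labels do not give the time from injection to sampling, nor which part of the gene was deleted.

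IL-23 is a cytokine of myeloid cells that sustains T cells and innate lymphoid cells producing IL-17 and IL-22. In skin, IL-17 and IL-22 act on keratinocytes, which respond with antimicrobial proteins, chemokines for neutrophils, stress keratins and a changed programme of cornification. MDL-1, the product of Clec5a, is a C-type lectin receptor of neutrophils, monocytes and macrophages that signals through the adaptors DAP12 (Tyrobp) and DAP10 (Hcst) to the kinase Syk and to phosphoinositide 3-kinase.

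Libraries held 4181883 to 4692900 counts in the knockout group and 4759464 to 5605713 in the GFP group. A count of 0 was given an upper limit of 3 counts, about the 95% limit of counting error. In these 6 libraries 3 counts equal 0.535 to 0.717 CPM (counts scaled to a common library total). The labels give an average of 600000 reads per sample, fewer than these totals, so how a deposited count relates to a sequenced read is uncertain. Bounds and exact intervals here take each count as 1 read. A fold given as "at least" sets the observed knockout count against 3 GFP counts. It leaves out the counting error of the knockout group and the spread among libraries, so the true ratio may be lower. Mitochondrially encoded transcripts took 11.4% to 12.9% of counts in the knockout group and 12.6% to 15.1% in the GFP group. The first principal component of the 6 libraries carried 60.3% of their variance and separated the groups. The ear was recognisable in every GFP library by cartilage (Col9a1), muscle (Ttn), fat (Adipoq) and epidermal (Krt14) transcripts. Levels are given as CPM with TMM scaling (trimmed mean of M-values), in the order of libraries 1, 2 and 3 of a group, and tests are edgeR's quasi-likelihood test with Benjamini-Hochberg adjustment over all 13807 tested genes. A gene is called, or said to have risen or fallen, at an adjusted p under 0.05. Some genes were below the filter's minimum count of 10 in every GFP library, among them Sprr2b, Lce3a, Defb4, Tgm1, Icos and Ccr6. They entered the test only through the IL-23 groups, where they are high, so their adjusted p-values are descriptions. Other genes, among them Defb8, Col9a1 and Clcn1, were below this minimum in every knockout library. These entered through the GFP group, where they are high, so their adjusted p-values are descriptions as well.

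Of 13807 tested genes, 2359 (17.1%) were called: 1402 (10.2%) were higher in the knockout group and 957 (6.93%) lower. These shares are the background for each count of risers and fallers on a list below. At least 2-fold differences were called for 641 higher genes (4.64%) and 485 lower genes (3.51%). At 10-fold the balance was more uneven, with 101 genes higher and 5 lower. The median log2 fold change of all tested genes was -0.02. Higher genes made up 59.4% of calls, but 43.7% with upper-quartile scaling, which moved the median of all genes to -0.12. The number of calls dropped to 1365 without knockout library 2 and to 1340 without GFP library 3. Libraries of the groups did not overlap for 35.8% of tested genes, 17.9% above and 17.9% below. Against the wild-type IL-23 group, which shares the knockout libraries with this comparison, 2439 genes (17.7%) were called, 1046 (7.58%) higher and 1393 (10.1%) lower in the knockout group. That count was 1166 without knockout library 1 and 1363 without knockout library 3. Leaving out library 2 or 3 of the wild-type IL-23 group gave 1128 and 1300.

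**Figure D1:**
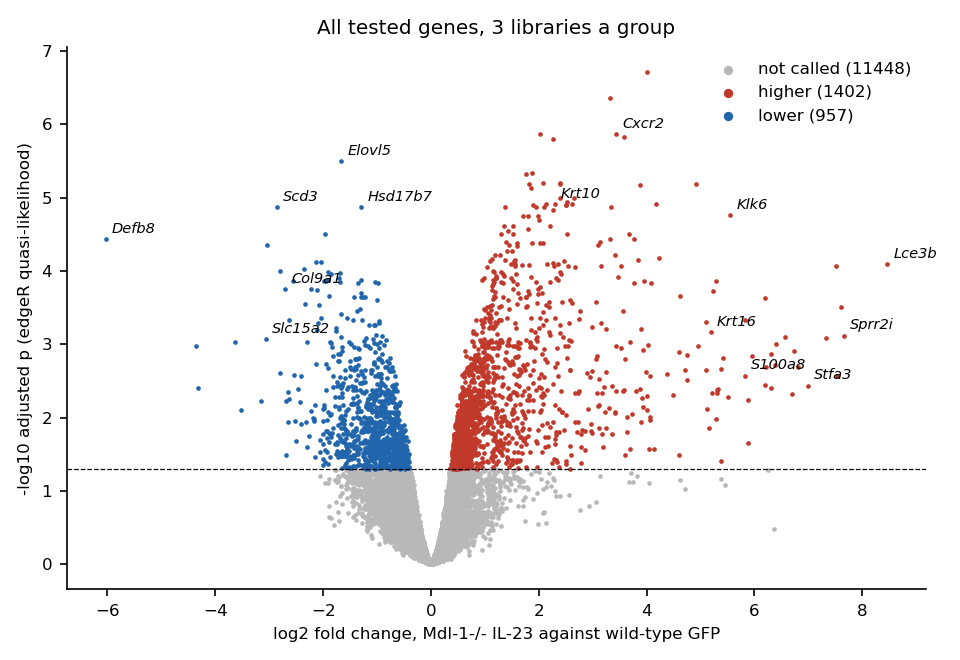
Each point is a tested gene; the horizontal axis is the log2 fold change of the knockout group over the GFP group and the vertical axis is −log10 of the adjusted p. Called genes lie further out on the right, where 101 reach 10-fold, than on the left, where 5 do.

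The 3 knockout libraries were not alike in how far they stood from the GFP group. Among the 101 genes called at least 10-fold higher, knockout library 2 held the highest of the 3 values for 77 and knockout library 1 the lowest for 87. Among the 485 genes called at least 2-fold lower, knockout library 2 was the lowest of the 3 for 276 and knockout library 1 the highest for 249. No label tells these libraries apart.

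The largest increases were in genes of the cornified envelope, the cross-linked protein shell that replaces the membrane of dying keratinocytes. All 13 tested small proline-rich protein genes, whose products are cross-linked into that shell, rose; 15 were listed, and the median log2 fold change was 5.32. The late cornified envelope genes of the Lce3 group rose in 6 of 6, with a median of 5.30. Several of these genes were near 0 in the GFP group and passed the count filter only through the IL-23 groups, so their counts are descriptions. Both counts were unchanged when any library was left out. Sprr2, Lce3, Krt6 and stefin genes have near-identical copies, and the counting rule for reads that match several places is not given in the sources used here, so their separate levels are uncertain.

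Sprr2d was read at 7.13, 9.92 and 3.4 CPM in the GFP libraries and at 402, 1172 and 576 CPM in the knockout libraries. The lowest knockout library was thus far above the highest GFP library, and the log2 fold change was 6.73 (SE 0.69, adjusted p = 0.00123). The wild-type IL-23 libraries held 2616, 2996 and 5646 CPM, all above the knockout libraries. The direct comparison of the 2 IL-23 groups gave a log2 fold change of -2.39 (adjusted p = 0.0273). Sprr2b (0.696, 0.184 and 0.309 CPM with GFP; 47.9, 144 and 55.4 CPM in the knockout group) had a log2 fold change of 7.61 (SE 0.69, adjusted p = 0.000312). It was 6.94 without knockout library 2 and 8.24 without GFP library 1. Sprr2i, counted 3, 2 and 0 times with GFP, was read at 42, 103 and 43.1 CPM in the knockout libraries. Its log2 fold change of 7.66 was 8.36 without GFP library 1 and 7.07 without GFP library 3. In all of these genes the groups were separate, and knockout library 2 was the highest of its group.

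Lce3b had 2 counts in the 3 GFP libraries together and 639 in the knockout libraries, a ratio of 433 by pooled CPM (exact 95% interval 119 to 3586, counting error only). Lce3a was read at 1.04, 0.918 and 1.39 CPM in the GFP libraries and at 115, 279 and 243 CPM in the knockout libraries (log2 fold change 7.52, SE 0.55, adjusted p = 8.6e-05). Sprr1a rose from 2.96, 9 and 6.65 CPM to 85.7, 125 and 106 CPM (log2 fold change 4.09, SE 0.39, adjusted p = 0.000143). Sprr2k, without a count in the GFP group, was at least 9.04-fold higher, taking 3 counts over the GFP group as its limit. Against the wild-type IL-23 group, 8 of the 13 small proline-rich genes and 4 of the 6 Lce3 genes were lower in the knockout group and none was higher, with median log2 fold changes of -1.81 and -1.79.

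These genes lie together in the epidermal differentiation complex. In the span of the listed genes there, chr3:92080271-93449077 (GRCm38), 57 of 85 annotated genes were tested. Of these 36 (63.2%) were higher in the knockout group and 0 lower, against 10.2% and 6.93% of all tested genes. The lists themselves set the span and supplied most of its tested genes. This count therefore largely repeats theirs and is a description. The span held 22 of the 101 genes called at least 10-fold higher. Outside the lists, 15 genes of the span were tested, 6 of them higher and 0 lower.

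Promoters of the small proline-rich genes are shown because 9 of their 12 windows hold the core of the AP-1 element, the site of Fos and Jun factors that is well known in keratinocyte genes. The window was 250 bases before to 50 bases after each RefSeq start (GRCm38.p6), and the letters searched were TGANTCA on both strands. Each line gives the motif in capitals with 25 bases on either side, in the gene's direction; Sprr1a lies on the minus strand and the others on the plus strand.

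Sprr2b, chr3:92316485-92316541: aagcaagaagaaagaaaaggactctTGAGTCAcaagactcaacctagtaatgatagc

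Sprr2d, chr3:92338922-92338978: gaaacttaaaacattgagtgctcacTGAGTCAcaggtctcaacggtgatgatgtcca

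Sprr2f, chr3:92364965-92365021: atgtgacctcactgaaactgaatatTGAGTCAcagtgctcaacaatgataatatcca

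Sprr2i, chr3:92407773-92407829: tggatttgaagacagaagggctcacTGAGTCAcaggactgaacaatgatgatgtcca

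Sprr1a, chr3:92485966-92486022: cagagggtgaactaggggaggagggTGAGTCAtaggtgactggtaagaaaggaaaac

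In the 4 Sprr2 windows the element begins 193 to 197 bases before the start, and in Sprr1a 116 bases before it. Sprr2 genes are duplicates of one another, so their promoters are not independent examples. The core stood in 5.71% of the 12148 promoters of tested genes and in 7.81% of all 32851 promoters of the table. Its share was 9.82% over promoters of genes called higher and 14.2% over those called at least 2-fold higher (77 of 541). Over promoters of genes called lower it was 5.74%. The terminal differentiation list had it in 10 of 21 promoters, while 0 of 6 Lce3 and 0 of 13 Lce1 promoters held these letters in this window. A match is a run of letters, not evidence of binding.

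**Figure D2:**
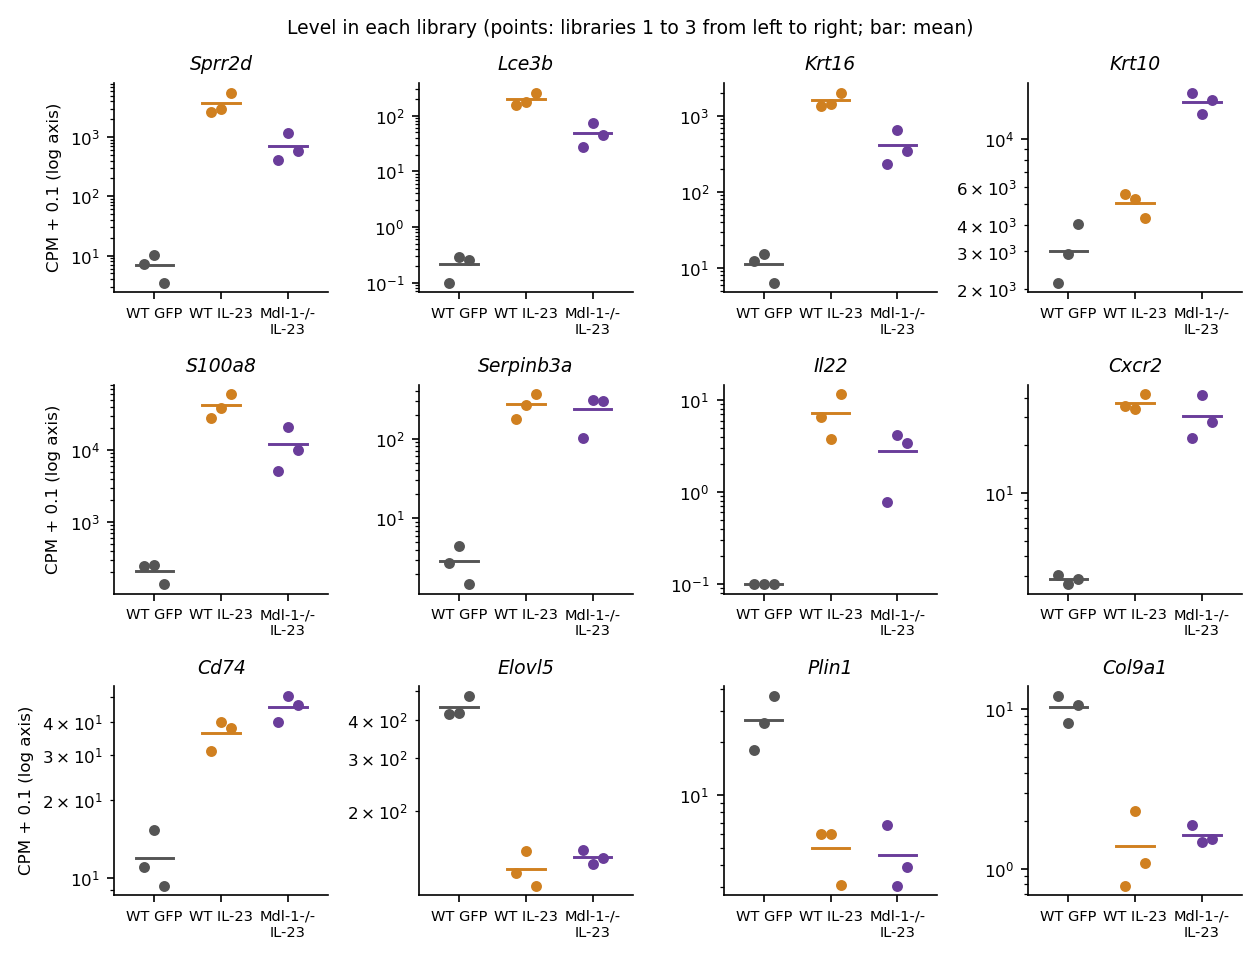
Each panel is 1 gene, with the TMM-scaled level on a log axis (CPM plus 0.1) for each library of the 3 groups. Points are libraries; the knockout libraries stand above the GFP libraries for genes that rose and below them for genes that fell.

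Keratins, the filament proteins that change as keratinocytes leave the basal layer, were split by class. The 4 stress keratins, which appear in wounded or rapidly dividing epidermis, all rose, and their median log2 fold change was 3.89. Krt16 was at 12.4, 15.1 and 6.34 CPM with GFP and at 232, 644 and 347 CPM in the knockout group (log2 fold change 5.19, SE 0.51, adjusted p = 0.000677). Krt6b went from 26.5, 28.6 and 16.6 CPM to 927, 2576 and 927 CPM, a log2 fold change of 5.95 that was 5.29 without knockout library 2. Both genes were separate between the groups, and both were lower than in the wild-type IL-23 group (log2 fold changes -1.96 and -2.54, adjusted p = 0.0206 and 0.0213). Krt17 rose from 27.5, 40.6 and 26.4 CPM to 109, 158 and 109 CPM (log2 fold change 2.0, SE 0.21, adjusted p = 1.99e-05). Krt6a had an adjusted p of 0.0317 that passed 0.05, up to 0.113, when any of 6 libraries was left out (knockout 1 or 2, GFP 1, 2 or 3, or wild-type IL-23 library 1). Its log2 fold change of 2.6 was 1.98 without knockout library 2.

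Krt10, the main suprabasal partner of Krt1, behaved differently from the stress keratins. Its level was 2153, 2921 and 4005 CPM with GFP, 5528, 5278 and 4312 with wild-type IL-23, and 16418, 13081 and 15124 in the knockout group. The knockout libraries were above all other libraries, and the log2 fold change was 2.30 over GFP (SE 0.20, adjusted p = 1.21e-05) and 1.56 over wild-type IL-23 (adjusted p = 0.000928). Krt1 rose from 51.5, 90.7 and 99.3 CPM to 702, 1583 and 1005 CPM (log2 fold change 3.77, SE 0.34, adjusted p = 0.000147), and its difference from the wild-type IL-23 group was -0.74 (adjusted p = 0.125). Of 7 tested suprabasal keratins 4 rose, but 2 without knockout library 1 or without GFP library 3. The basal keratin Krt5 was 1609, 1479 and 1749 CPM with GFP and 1894, 1666 and 1391 CPM in the knockout group, values that overlap. Krt14 had a log2 fold change of 0.54 that missed the threshold (adjusted p = 0.0505). Among 15 tested genes of basal keratinocytes, 1 was higher and 2 were lower, against 10.2% higher and 6.93% lower over all tested genes. Without knockout library 2 or GFP library 3 the counts were 0 and 0, and with upper-quartile scaling 4 were lower.

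Genes of terminal differentiation rose in 15 of 22 tested members, none fell, and the median log2 fold change was 1.6. Tgm1 among them passed the filter only through the IL-23 groups, so this count and the adjusted p of Tgm1 are descriptions. Rptn (repetin, a fused S100 protein of the envelope) was read at 2.26, 4.77 and 4.64 CPM with GFP and at 108, 297 and 134 CPM in the knockout group (log2 fold change 5.51, SE 0.79, adjusted p = 0.00515). Tgm1, the transglutaminase that cross-links the envelope, went from 1.39, 1.1 and 0.773 CPM to 8.5, 8.23 and 11.5 CPM (log2 fold change 3.09, SE 0.36, adjusted p = 4.33e-05). Its wild-type IL-23 level was 7.33, 7.44 and 11.9 CPM, so here the IL-23 groups overlapped (log2 fold change 0.10, adjusted p = 0.844). Involucrin (Ivl), an early scaffold of the envelope, rose from 8.35, 14.1 and 16.2 CPM to 62.4, 43.5 and 75.2 CPM (log2 fold change 2.22, SE 0.27, adjusted p = 0.000141). Filaggrin (Flg) and loricrin (Lor), the bulk proteins of the granular layer, missed the threshold with log2 fold changes of 1.47 (adjusted p = 0.0685) and 1.21 (adjusted p = 0.284). GFP library 1 was the lowest library for both, at 201 against 599 and 677 CPM for Flg and at 112 against 693 and 353 CPM for Lor. The Lce1 group rose in 6 of 14 genes with a median of 1.49. That count was unsettled: 3 without knockout library 1, knockout library 3, GFP library 3, or wild-type IL-23 library 1 or 3, and 9 without GFP library 2. It was 3 with the 6 libraries alone, 10 by DESeq2 and 11 by voom or with non-robust dispersions.

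Enzymes of the acylceramides, the lipids that seal the cornified layer, rose in 10 of 14 tested genes with none lower (median log2 fold change 1.35). Cers3, the ceramide synthase for ultra-long acyl chains, rose from 9.92, 20.4 and 15.9 CPM to 82.5, 95.1 and 85.1 CPM (log2 fold change 2.51, SE 0.23, adjusted p = 1.26e-05). Alox12b, the lipoxygenase that oxidises acylceramides, was 4.87, 10.5 and 5.72 CPM against 41.6, 35 and 33.3 CPM (log2 fold change 2.39, SE 0.23, adjusted p = 1.02e-05). Sdr9c7, a dehydrogenase of the same route, had a log2 fold change of 2.13 (SE 0.21, adjusted p = 1.22e-05). The 3 knockout libraries were close together for all 3 genes, and without overlap with the GFP group.

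Epidermal proteases and their inhibitors, which set the pace of shedding, rose in 19 of 24 tested genes with none lower (median log2 fold change 2.25). Klk12 and Tmprss11d among them passed the filter only through the IL-23 groups, so the count is a description. Klk6, a kallikrein protease, went from 4, 5.51 and 5.1 CPM to 153, 292 and 241 CPM (log2 fold change 5.55, SE 0.37, adjusted p = 1.72e-05). With wild-type IL-23 it was at 699.7, 916 and 1451 CPM, above the knockout group by the direct test (log2 fold change -2.16, adjusted p = 0.00234). The serpin Serpinb3a rose from 2.61, 4.41 and 1.39 CPM to 103, 306 and 296 CPM (log2 fold change 6.41, SE 0.66, adjusted p = 0.000988). Its wild-type IL-23 level of 179, 269 and 366 CPM overlapped with that of the knockout group (log2 fold change -0.21, adjusted p = 0.804). Klk12 and Tmprss11d, without a count in the GFP group, were at least 5.43-fold and 11.3-fold higher. Against the wild-type IL-23 group 12 of the 24 genes were lower and 0 higher.

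Gap junction genes rose in 5 of 6, but in 3 without knockout library 1, GFP library 1 or GFP library 3. Gjb2, the connexin 26 gene, was 9.05, 12.9 and 8.2 CPM with GFP and 115, 218 and 126 CPM in the knockout group (log2 fold change 3.93, SE 0.46, adjusted p = 0.0012). Gjb6, the connexin 30 gene, rose by a log2 fold change of 3.57 (SE 0.40, adjusted p = 0.000354). Of 11 ligands of the EGF receptor 7 rose and 1 fell, against 10.2% and 6.93% of all tested genes. Epgn (epigen) rose from 4.87, 3.31 and 1.55 CPM to 22.1, 27.7 and 42.4 CPM (log2 fold change 3.25, SE 0.42, adjusted p = 0.000614), and Tgfa (transforming growth factor alpha) from 13.9, 13 and 10.5 CPM to 33.3, 45.1 and 38.6 CPM. The ligand that fell, Btc (betacellulin), had an adjusted p of 0.0216 that rose to between 0.0594 and 0.0768 without any of the 3 knockout libraries or without GFP library 2 or 3.

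**Figure D3:**
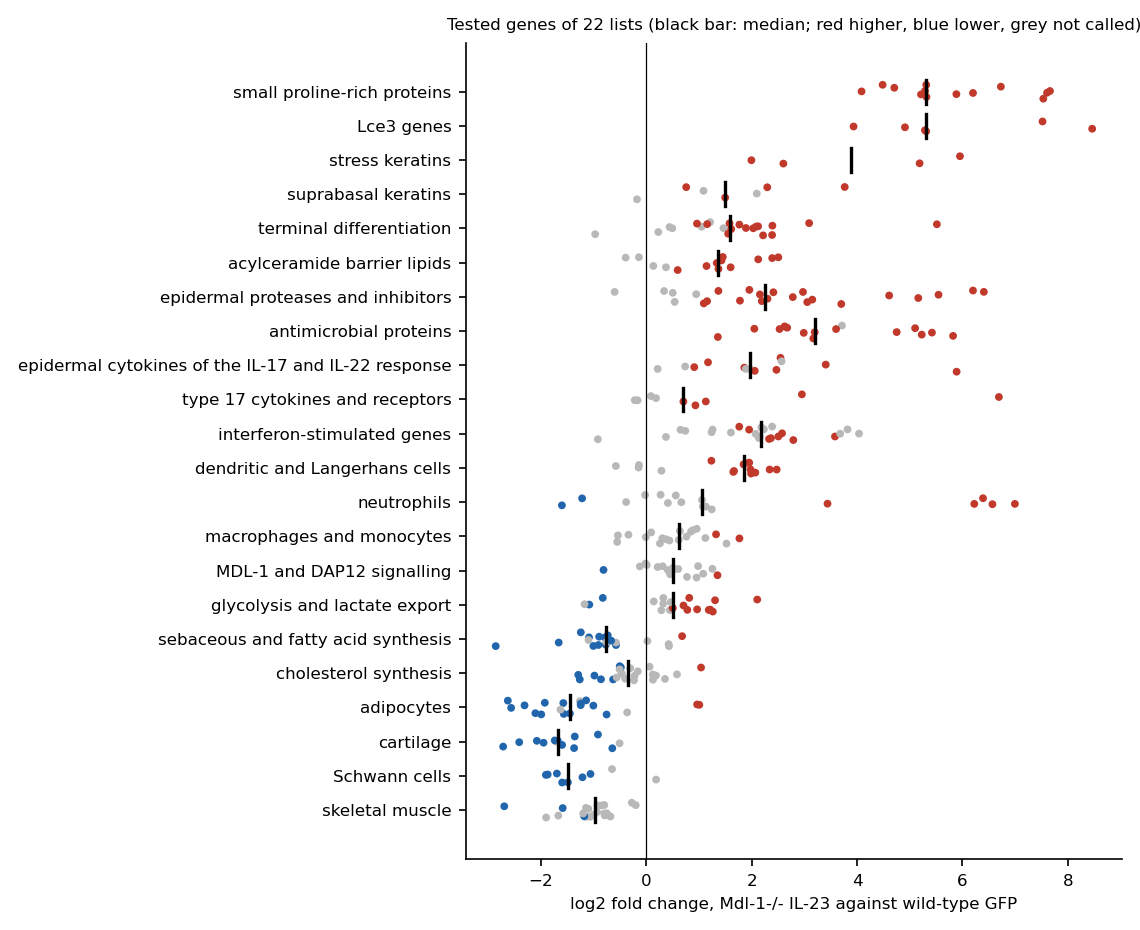
For each gene list, points are tested genes on the axis of log2 fold change, knockout over GFP, with the list's median marked. Small proline-rich, Lce3 and stress keratin genes lie farthest to the right, and adipocyte, cartilage and Schwann cell genes to the left.

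Antimicrobial proteins rose in 14 of 15 tested genes (20 listed), none fell, and the median log2 fold change was 3.20. Defb3 and Defb4 on this list passed the filter only through the IL-23 groups, so the count is a description. S100a8 and S100a9 form calprotectin, which withholds metal ions from microbes and is made by keratinocytes and neutrophils. S100a8 was read at 241, 255 and 137 CPM with GFP and at 5082, 20566 and 10142 CPM in the knockout group (log2 fold change 5.82, SE 0.69, adjusted p = 0.00265). Without knockout library 2 the log2 fold change was 5.19. S100a9 had 91.4, 83.2 and 63.1 CPM against 1543, 5319 and 3318 CPM (log2 fold change 5.42, SE 0.58, adjusted p = 0.00152). The knockout libraries differed widely among themselves for S100a8, with the lowest still far above the GFP group. The differences from the wild-type IL-23 group, -1.82 and -1.50, missed the threshold (adjusted p = 0.0777 and 0.0816).

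Beta-defensins, small cationic peptides, moved in both directions. Defb3 had 3 counts over the GFP group and 96 over the knockout group, a ratio of 43.4 by pooled CPM (exact 95% interval 14.4 to 214). Defb4 rose from 0.348, 0.184 and 0.309 CPM to 2.01, 5.03 and 1.2 CPM, with a log2 fold change of 3.17 (adjusted p = 0.00464) that was 2.42 without knockout library 2. Defb8 went the other way and was the most reduced of all genes called lower with separate groups and a mean of 5 CPM or more. Its counts were 101, 157 and 220 with GFP and 2, 3 and 0 in the knockout group, which is 17.6, 28.8 and 34 CPM against 0.447, 0.686 and 0 CPM. Its log2 fold change was -6.03 (SE 0.60, adjusted p = 3.66e-05) and -6.70 without knockout library 2. The wild-type IL-23 libraries were also low, at 0, 1.53 and 0.331 CPM. Defb8 thus passed the filter only through the GFP group, where it is high, so its adjusted p is a description.

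Of 13 tested cytokines and chemokines that IL-17 and IL-22 induce in epidermis (19 listed) 8 rose and 0 fell, with a median of 1.97. Cxcl5 on this list passed the filter only through the IL-23 groups, so these numbers are descriptions. The count was 5 without knockout library 2 or GFP library 2. Il1f6, which encodes IL-36 alpha, rose from 6.44, 5.51 and 3.87 CPM to 40.7, 60.2 and 66.6 CPM (log2 fold change 3.41, SE 0.33, adjusted p = 5.96e-05). Il1f9, which encodes IL-36 gamma, rose from 38.1, 54.2 and 28.8 CPM to 187, 255 and 265 CPM (log2 fold change 2.55, SE 0.26, adjusted p = 8.6e-05). Only the second of the 2 was called lower than in the wild-type IL-23 group (log2 fold change -1.15, adjusted p = 0.00962; -0.42 and 0.316 for Il1f6), and the difference between the genes was not tested. The neutrophil chemokine gene Cxcl5 had 1 count in the GFP libraries against 64, a ratio of 86.8 (exact 95% interval 15 to 3482). Its call was lost without knockout library 1, knockout library 2 or any GFP library (adjusted p 0.0565 to 0.1), and without GFP library 1 the log2 fold change of 5.89 was 7.52.

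Among cytokines and receptors of type 17 cells 9 of 17 were measured above the filter, 5 rose and 0 fell. With the 6 libraries alone or a minimum count of 30, 3 rose. Il22 and Ccr6 passed the filter only through the IL-23 groups, so the count of risers and the adjusted p of Ccr6 are descriptions. Il22 was without a count in the GFP group and had 3, 18 and 14 counts in the knockout libraries, at least 15.8-fold more. Its wild-type IL-23 level was 6.42, 3.72 and 11.6 CPM against 0.671, 4.12 and 3.35 CPM in the knockout group, which overlap (log2 fold change -1.37, adjusted p = 0.113). Il17a stayed below the filter, with 0, 4 and 1 counts in the knockout libraries and 0 in each GFP library. Ccr6, the chemokine receptor of these cells, rose from 0.522, 0.184 and 0.155 CPM to 2.46, 2.97 and 1.68 CPM (log2 fold change 2.95, SE 0.59, adjusted p = 0.00281), and the log2 fold change was 3.65 without GFP library 1. Il22ra2, the soluble receptor that captures IL-22, stood at 21.4, 18.4 and 24.9 CPM with GFP, 27.5, 21.7 and 25.8 with wild-type IL-23, and 45.2, 49.2 and 47.7 in the knockout group. It was higher in the knockout group than in either other group (log2 fold changes 1.13 and 0.92, adjusted p = 0.000289 and 0.00295).

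The targeted gene, Clec5a (chr6:40574894-40585821, minus strand), was counted 2, 7 and 10 times with GFP and 10, 13 and 5 times in the knockout group (log2 fold change 0.99, adjusted p = 0.218). The reads are 3' tags and the deleted part is not named in the labels, so these counts do not check the genotype. Of 17 tested genes of MDL-1 and DAP12 signalling 1 rose and 1 fell against GFP, with a median log2 fold change of 0.50. Over all tested genes 10.2% rose and 6.93% fell. Against the wild-type IL-23 group 1 was higher and 9 were lower, with a median of -1.15, where 7.58% of all tested genes were higher and 10.1% lower. Tyrobp (DAP12) was 2.26, 5.69 and 5.41 CPM with GFP, 6.93, 6.86 and 5.75 in the knockout group, and 11.7, 16.9 and 14.9 with wild-type IL-23. The knockout libraries lay just above the GFP libraries without passing the test (log2 fold change 0.54, adjusted p = 0.267) and below the wild-type IL-23 libraries (log2 fold change -1.15, adjusted p = 0.0173). Syk, the kinase next in line, had log2 fold changes of 0.22 (adjusted p = 0.732) and -1.16 (adjusted p = 0.0329) in the same comparisons. The riser was Blnk, an adaptor downstream of Syk, at 9.4, 7.9 and 6.96 CPM against 19.9, 16.9 and 25.2 CPM (log2 fold change 1.35, SE 0.26, adjusted p = 0.0021). Pik3r1, the regulatory subunit of phosphoinositide 3-kinase, fell from 199, 217 and 223 CPM to 144, 116 and 106 CPM (log2 fold change -0.81, SE 0.15, adjusted p = 0.00204).

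Around the Clec5a locus, 42 of 271 annotated genes starting within 5 Mb were tested. Of these 4 were higher (Atp6v0a4, E330009J07Rik, Tcaf2 and Trbc2) and 3 lower (Clcn1, D630045J12Rik and Tcaf1), or 16.7%, against 17.1% of all tested genes. Without GFP library 1, 2 of the 7 were still called, and without knockout library 1 or 2 or GFP library 3, 4 were. E330009J07Rik and Tcaf2 kept their call without each of the 9 libraries in turn, while Clcn1 kept it in 3 of these 9 fits and D630045J12Rik in 4.

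Immune cell markers did not move as a block. In bulk tissue, fewer cells of a type and less RNA per cell cannot be told apart. Of 17 tested genes on the neutrophil list 5 rose and 2 fell (1 without knockout library 2 or 3 or GFP library 1 or 3, and 1 by voom). Among the risers were stefin genes, cysteine protease inhibitors that keratinocytes as well as neutrophils make. Stfa3 went from 17.6, 21.7 and 11.3 CPM to 674, 3370.2 and 2383 CPM (log2 fold change 7.0, SE 0.88, adjusted p = 0.00363), and Stfa1 had a log2 fold change of 6.39 (SE 0.71, adjusted p = 0.00191). Stfa2 had one of 6.57 (SE 0.65, adjusted p = 0.000799), and 7.42 without GFP library 1. Cxcr2, the receptor for neutrophil chemokines, was 2.96, 2.57 and 2.78 CPM with GFP and 22.1, 41.2 and 27.8 CPM in the knockout group (log2 fold change 3.44, SE 0.26, adjusted p = 1.36e-06). Over the 17 tested genes of the list the median log2 fold change was 1.06, and 10 were not called. Relative to the GFP mean, the list's median was 0.75, 1.65 and -0.04 in knockout libraries 1, 2 and 3. The granulocyte genes Csf3r, Retnlg and Ly6g were picked out after their values were seen and do not stand for the list. Csf3r was 0.348, 1.84 and 1.08 CPM against 1.79, 2.52 and 0.479 CPM (log2 fold change 0.56, adjusted p = 0.562), and Retnlg 0.348, 2.39 and 1.55 CPM against 2.01, 6.63 and 0.719 CPM (adjusted p = 0.303). Ly6g had 1 count in the GFP group and 2 in the knockout group. Both Csf3r and Retnlg were lower in the knockout group than in the wild-type IL-23 group (log2 fold changes -1.87 and -2.23, adjusted p = 0.0213 and 0.0215).

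On the list of dendritic and Langerhans cells, which joins genes of class II antigen presentation with markers of the cells, 11 of 15 tested genes rose and none fell, and the median log2 fold change was 1.85. The risers were Cd74, H2-Aa, H2-Ab1, H2-Eb1, H2-DMa, H2-DMb1 and Ciita, all of class II presentation, and the markers Cd207, Itgax, Xcr1 and Irf8. Cd86, Zbtb46, Clec10a and Mgl2 were not called. H2-Aa, a class II chain, was 42.6, 49.9 and 28.8 CPM with GFP and 128, 171 and 183 CPM in the knockout group (log2 fold change 1.99, SE 0.20, adjusted p = 1.75e-05). Cd74, the invariant chain, went from 11, 15.2 and 9.28 CPM to 40, 50.5 and 46.5 CPM (log2 fold change 1.95, SE 0.20, adjusted p = 1.34e-05), and the class II peptide loader H2-DMa rose by 2.34 (SE 0.41, adjusted p = 0.00113). Their levels with wild-type IL-23 were near those of the knockout group, with log2 fold changes between the IL-23 groups of 0.25, 0.33 and 0.27 (adjusted p = 0.404, 0.227 and 0.642). The Langerhans cell lectin Cd207 rose from 2.09, 1.29 and 2.47 CPM to 11.4, 2.29 and 9.82 CPM. Knockout library 2 lay within the GFP range, and without knockout library 1 the adjusted p went from 0.0148 to 0.0524.

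On the macrophage and monocyte list 2 of 19 tested genes rose, close to the 10.2% of all tested genes that did, and 0 fell. The Fc receptor gene Fcgr3, one of the 2, had a log2 fold change of 1.33 (adjusted p = 0.011, and 0.0521 without GFP library 3). The count was 7 without GFP library 2, 1 without GFP library 3, and 5 by voom or with no count filter. Of 14 T cell and innate lymphoid genes 5 rose, against 10.2% of all tested genes. The count was 2 without knockout library 2 or GFP library 3 and 3 at a minimum count of 30. Icos among them passed the filter only through the IL-23 groups, so the count and the adjusted p of Icos are descriptions. The costimulatory receptor Icos was 1.39, 1.47 and 1.24 CPM with GFP and 7.6, 12.1 and 8.39 CPM in the knockout group (log2 fold change 2.76, SE 0.41, adjusted p = 0.00035), and the IL-7 receptor gene Il7r rose by 1.42 (SE 0.26, adjusted p = 0.00173). The T cell receptor alpha constant gene Trac missed the threshold (log2 fold change 1.74, adjusted p = 0.12). Of 5 tested mast cell genes 0 were called against GFP by edgeR or DESeq2, and 0 had an unadjusted p under 0.05. The mast cell protease Cpa3 was 7.31, 3.31 and 4.49 CPM with GFP, 6.04, 2.97 and 1.92 in the knockout group, and 0.229, 0.438 and 0.661 with wild-type IL-23. The knockout and GFP libraries overlapped, and both groups were above the wild-type IL-23 group (log2 fold change 3.05 between the IL-23 groups, adjusted p = 0.0066). The list did not move one way between the IL-23 groups: Cpa3, Mcpt4 and Cma1 were higher in the knockout group and Hdc lower. Hdc, the histidine decarboxylase gene, which other myeloid cells also express, was 5.74, 16.5 and 20.7 CPM with GFP, 28, 28.4 and 5.99 in the knockout group, and 122, 121 and 152 with wild-type IL-23 (log2 fold change -2.65 between the IL-23 groups, adjusted p = 0.0256). That call was lost without knockout library 1 or any wild-type IL-23 library (adjusted p 0.0516 to 0.082), that of Mcpt4 without knockout library 1 (0.0708), and that of Cma1 without knockout library 1 or 2, GFP library 3 or any wild-type IL-23 library. Most of the list's summed level with wild-type IL-23, which was 125, 129 and 159 CPM against 37.6, 35.1 and 42.5 with GFP and 54.3, 42.5 and 18.9 in the knockout group, came from Hdc. No gene of the 10 listed for B and plasma cells, and none of the 10 for hepatocytes, passed the filter.

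Interferon-stimulated genes, which serve in defence inside the cell and in antigen processing, divided the knockout group itself. Their median log2 level relative to the GFP mean was 0.20 in knockout library 1, but 2.40 in knockout library 2 and 2.62 in knockout library 3. Gbp2, a guanylate-binding protein induced by interferon gamma, was 4.87, 5.51 and 3.09 CPM with GFP and 4.03, 83.3 and 85.1 CPM in the knockout libraries. Cxcl9, a chemokine for T cells, was 2.61, 6.98 and 1.08 CPM with GFP and 1.79, 289 and 168 CPM in the knockout libraries. For both genes knockout library 1 lay within the GFP range and the other two libraries far above it, and neither was called (adjusted p = 0.074 and 0.0817). Gbp2, Cxcl9 and Igtp were chosen after their values were seen. Wild-type IL-23 library 1 was also the lowest of its group, at 9.17 against 35 and 26.8 CPM for Gbp2.

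With all libraries, 8 of 24 tested interferon-stimulated genes rose and 0 fell, with a median of 2.17. Without knockout library 1 the count was 19, without knockout library 2 it was 3, and without knockout library 3 it was 2, where 1 fell. It was 4 without GFP library 1 and 2 without GFP library 2 or 3, and 5 without wild-type IL-23 library 1 or 3. The 6 libraries alone gave 3, DESeq2 15 and non-robust dispersions 16. Without knockout library 1, the adjusted p was 0.000649 for Gbp2 (log2 fold change 4.24) and 0.0151 for Cxcl9 (log2 fold change 6.05). For Cxcl9 the log2 fold change of 5.46 was 4.61 without knockout library 2 and 6.42 without GFP library 2, neither called. Psmb9, an immunoproteasome subunit, kept its call without each library; it was at 5.05, 2.94 and 3.71 CPM with GFP and 8.05, 23.8 and 27.6 CPM in the knockout group (log2 fold change 2.33, SE 0.40, adjusted p = 0.00176). Psmb9 was also higher than in the wild-type IL-23 group (log2 fold change 1.28, adjusted p = 0.0372). Its annotation overlaps that of Tap1, so reads of the pair may be shared.

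Promoter windows with paired interferon regulatory factor (IRF) half-sites are shown for 3 genes of the list. The letters searched were GAAA followed, after any 2 bases, by GAAA, on both strands of the same 300-base windows. They stand in capitals, and Gbp2 holds them on the opposite strand.

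Gbp2, chr3:142620579-142620638: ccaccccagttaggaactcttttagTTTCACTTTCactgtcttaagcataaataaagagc

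Igtp, chr11:58199497-58199555: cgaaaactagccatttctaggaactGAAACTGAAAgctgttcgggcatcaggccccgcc

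Irgm2, chr11:58214888-58214947: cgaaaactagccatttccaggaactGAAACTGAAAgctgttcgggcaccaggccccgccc

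The pair stood in 13 of 21 promoters of tested interferon-stimulated genes, in 3.05% of promoters of tested genes, in 4.11% of promoters of genes called higher and in 1.41% of those called lower. The Igtp and Irgm2 windows are near-identical, and the annotated Irgm2 locus overlaps Igtp, so their counts are uncertain. Igtp was 5.57, 5.51 and 2.32 CPM with GFP and 6.71, 91 and 90.1 CPM in the knockout libraries. As for Gbp2, knockout libraries 2 and 3 were far above the GFP range, but knockout library 1 lay just above it. Irgm2, at 5.22, 2.39 and 2.32 CPM with GFP and 4.7, 10.3 and 23.7 CPM in the knockout libraries, was called (log2 fold change 1.95, adjusted p = 0.021). Its call was lost without knockout library 3 (log2 fold change 1.20, adjusted p = 0.0801), GFP library 2 (0.0707) or GFP library 3 (0.0886). The STAT core TTCNNNGAA stood in 6.82% of promoters of tested genes, 8.39% of those called higher and 6 of 21 of the list.

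**Figure D4:**
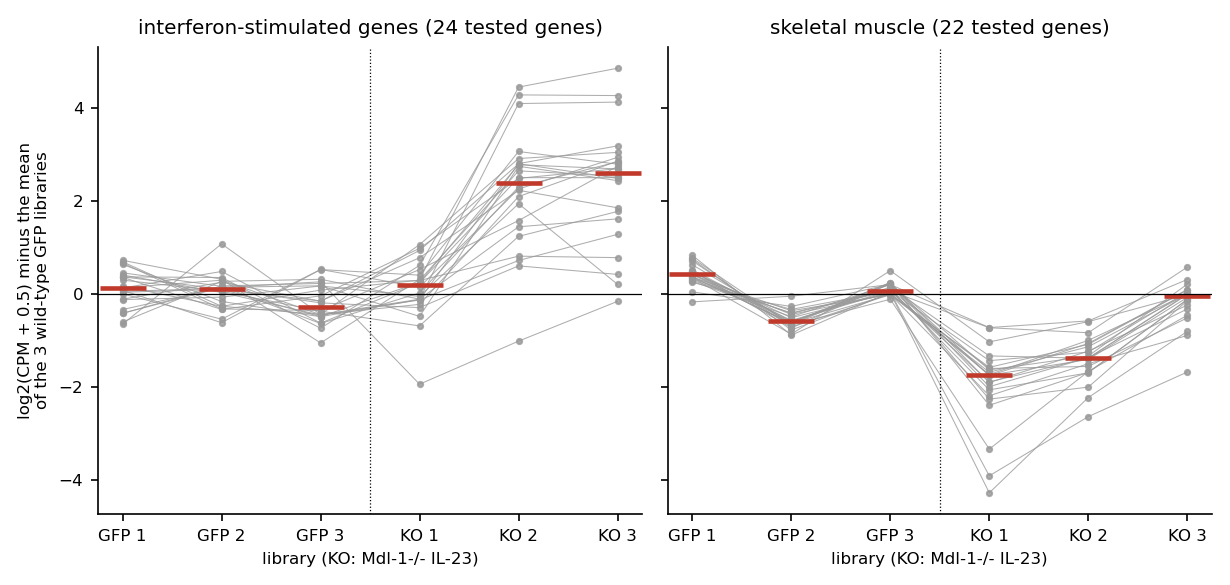
Levels of interferon-stimulated and muscle genes in each library relative to the GFP mean (log2 of CPM plus 0.5). Knockout library 1 lies near the GFP libraries for interferon-stimulated genes, where libraries 2 and 3 lie above; knockout library 3 lies near the GFP libraries for muscle genes.

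Among the lists for tissues under the epidermis, those of adipocytes, cartilage, Schwann cells, fibroblasts, endothelium and skeletal muscle held more genes that fell than rose. Endothelium and skeletal muscle each had 3 that fell and 0 that rose, counts that changed with the libraries used. Of 19 tested adipocyte genes 14 fell and 2 rose, and their median log2 fold change was -1.45. Plin1, which coats the lipid droplet, fell from 17.9, 25.5 and 36.8 CPM to 6.71, 2.97 and 3.83 CPM (log2 fold change -2.56, SE 0.34, adjusted p = 0.000138). Adipoq (adiponectin) fell from 28.5, 42.4 and 66.5 CPM to 12.5, 7.78 and 11.7 CPM (log2 fold change -2.10, SE 0.30, adjusted p = 0.000516). In both the groups were separate, and the wild-type IL-23 libraries were as low (2.98 to 5.96 CPM for Plin1). The 2 that rose, Cebpa (1.01, SE 0.15, adjusted p = 0.00034) and Dgat2 (0.97, SE 0.18, adjusted p = 0.00159), are a transcription factor and a triglyceride synthase that epidermis and sebaceous glands also express. Between the IL-23 groups 0 adipocyte genes were called by edgeR or DESeq2, and 2 had an unadjusted p under 0.05.

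Cartilage genes fell in 11 of 13 tested members and none rose, with a median of -1.68. Col9a1 among them was below the minimum count of 10 in every knockout library and passed the filter through the GFP group. The count of fallers and the adjusted p of Col9a1 are therefore descriptions. Col9a1, a collagen of cartilage fibrils, fell from 12, 8.08 and 10.5 CPM to 1.79, 1.37 and 1.44 CPM (log2 fold change -2.71, SE 0.38, adjusted p = 0.000176). Chad (chondroadherin) fell from 9.22, 13.4 and 15.6 CPM to 2.24, 2.06 and 2.88 CPM (log2 fold change -2.41, SE 0.46, adjusted p = 0.00267). Schwann cell genes fell in 7 of 9, and in 4 without knockout library 2, GFP library 1 or GFP library 3. S100b, a calcium-binding protein of these cells, fell from 100.4, 103 and 116 CPM to 38.9, 25.8 and 33.8 CPM (log2 fold change -1.69, SE 0.30, adjusted p = 0.00357). Between the IL-23 groups 0 cartilage genes were called by edgeR and 1 by DESeq2, and 4 had an unadjusted p under 0.05. As these are shares of each library's counts, a loss of the tissue's RNA and a gain of other RNA cannot be told apart.

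Of 21 fibroblast and dermal matrix genes 7 fell and 1 rose, with a median of -1.02; without knockout library 1 14 fell, and without knockout library 2 or 3 4 fell. Fmod (fibromodulin, a collagen-binding proteoglycan) fell from 16.2, 14.7 and 13.3 CPM to 4.47, 3.43 and 4.55 CPM (log2 fold change -1.82, SE 0.33, adjusted p = 0.00141). The riser was Tnc (tenascin C), a matrix protein of wounded skin, from 14.8, 18.9 and 16.6 CPM to 43.2, 62 and 56.3 CPM (log2 fold change 1.68, SE 0.21, adjusted p = 8.28e-05). Endothelial genes fell in 3 of 10 (1 without knockout library 2 or 3 or any GFP library), and 3 of 3 melanocyte genes fell (0 without knockout library 2, 1 without knockout library 3).

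Skeletal muscle genes split the knockout group in another way than the interferon genes did. Their median log2 level relative to the GFP mean was -1.75 in knockout library 1, -1.37 in library 2 and -0.04 in library 3. Myh4, a fast myosin, was 495, 250.1 and 362 CPM with GFP and 17.9, 75.7 and 204 CPM in the knockout libraries (log2 fold change -1.90, adjusted p = 0.157). The knockout libraries were below the GFP libraries but spread more than 10-fold. Of 22 tested muscle genes 3 fell, 20 without knockout library 3 and 0 without knockout library 1 or 2, GFP library 1 or 3, or wild-type IL-23 library 1. The 6 libraries alone gave 0, DESeq2 and non-robust dispersions 5, no count filter 8 and voom 11. Without knockout library 3, Myh4 had a log2 fold change of -2.96 (adjusted p = 0.0383) and Ttn, the sarcomere spring titin, one of -1.39 (adjusted p = 0.00099) in place of -0.79 (adjusted p = 0.231).

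**Figure D5:**
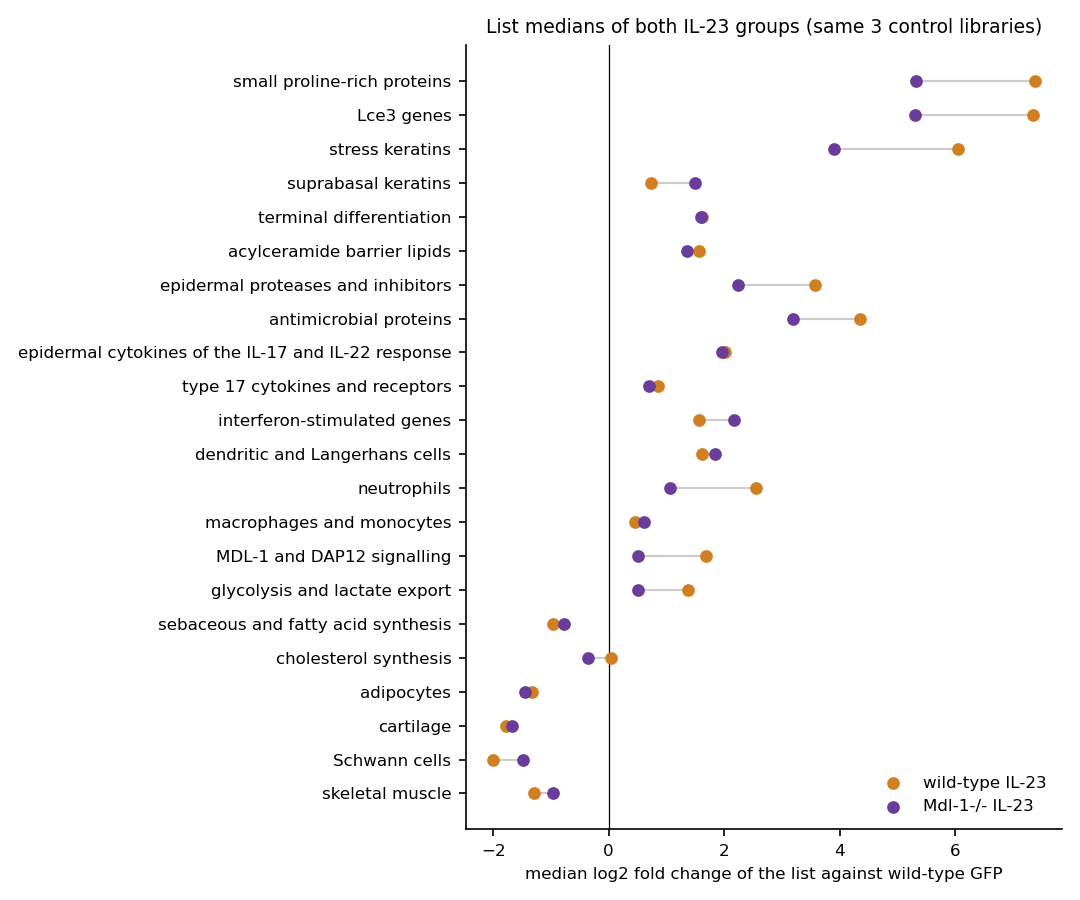
Each row is a gene list with 2 points, 1 for the wild-type IL-23 group and 1 for the knockout group. A point is the median log2 fold change of the list's tested genes over the same 3 GFP libraries. Small proline-rich genes had medians of 7.38 with wild-type IL-23 and 5.32 in the knockout group. In the same order, medians were -1.78 and -1.68 for cartilage, -1.34 and -1.45 for adipocytes, and 1.56 and 2.17 for interferon-stimulated genes.

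Lipid synthesis moved in parts. Of 19 sebaceous and fatty acid synthesis genes 12 fell and 1 rose; the number that fell was 6 without knockout library 3 or GFP library 3. Elovl5, an elongase of polyunsaturated fatty acids, fell from 419, 424 and 483 CPM to 148, 133 and 139 CPM (log2 fold change -1.66, SE 0.14, adjusted p = 3.14e-06). Scd3, the sebaceous stearoyl-CoA desaturase, was 31.7, 36 and 34.6 CPM with GFP, 14.4, 26.1 and 11.2 with wild-type IL-23, and 3.35, 5.49 and 5.27 in the knockout group. It was below all libraries of both other groups (log2 fold changes -2.85 and -1.90, adjusted p = 1.34e-05 and 0.00157). Of 22 cholesterol synthesis genes 7 fell and 1 rose. Over all tested genes 6.93% fell and 10.2% rose, and neither lipid list was tested against those shares. Hsd17b7, which reduces a sterol ketone, fell from 705, 781 and 712 CPM to 291, 342 and 267 CPM (log2 fold change -1.29, SE 0.13, adjusted p = 1.34e-05). The gene that rose was Sc5d, a late desaturase of the pathway, from 51.7, 64.3 and 59.9 CPM to 108, 128 and 126 CPM (log2 fold change 1.04, SE 0.19, adjusted p = 0.00192).

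Glycolysis and lactate export genes rose in 10 of 19 and fell in 2, against 10.2% and 6.93% of all tested genes. The median was 0.51, and 6 rose without knockout library 2. Slc2a1, the glucose transporter GLUT1, rose from 66, 65.2 and 66.5 CPM to 142, 214 and 133 CPM (log2 fold change 1.31, SE 0.18, adjusted p = 0.000142). Pgk1, a glycolytic kinase, rose from 124, 123 and 109.8 CPM to 197, 374 and 287 CPM (log2 fold change 1.26, SE 0.19, adjusted p = 0.000467). Against wild-type IL-23, 13 of the 19 were lower and 0 higher, with a median of -0.74. The 2 that fell against GFP were Pfkm, the muscle form of phosphofructokinase (log2 fold change -1.08, adjusted p = 0.00447), and Ldhb, the heart form of lactate dehydrogenase (-0.82, adjusted p = 0.00465). Smox, which oxidises spermine, was 7.13, 5.88 and 3.87 CPM with GFP and 21, 27.9 and 31.9 CPM in the knockout group (log2 fold change 2.26, SE 0.23, adjusted p = 1.48e-05).

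Proliferation genes showed little difference from GFP. Of 24 mitosis genes 0 were called by edgeR and 0 by DESeq2 (3 had an unadjusted p under 0.05), with 2 higher without knockout library 1. Of 23 DNA replication genes 2 rose, against 10.2% of all tested genes. Mki67, a marker of dividing cells, was 83, 99.7 and 80.6 CPM with GFP and 73.1, 94.2 and 75.5 CPM in the knockout group, which overlap (log2 fold change -0.12, adjusted p = 0.71). Of the 15 mitochondrially encoded transcripts 0 were called by edgeR or DESeq2 and 0 had an unadjusted p under 0.05; of 24 nuclear respiratory chain genes 1 rose. Of 18 immediate early genes, which respond to handling as well as to stimuli, 7 rose and 0 fell. Btg2, an antiproliferative one, rose from 51.3, 59.3 and 54.1 CPM to 139, 144 and 159 CPM (log2 fold change 1.43, SE 0.16, adjusted p = 2.83e-05). Clock genes fell in 4 of 15 and rose in 1, against 6.93% and 10.2% of all tested genes. The number that fell was 7 without knockout library 1, with upper-quartile scaling or with no count filter. It was 2 without knockout library 2 or any GFP library. Per3, a period gene, fell from 56.6, 79.7 and 63.3 CPM to 42.3, 22.4 and 35 CPM (log2 fold change -1.0, SE 0.20, adjusted p = 0.00342).

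Relative to both other groups, which share the knockout libraries as the common side, 107 genes were called higher in the knockout group and 47 lower. Of the other genes higher than GFP, 353 were lower than wild-type IL-23 and 942 were not called against it. Of the other genes lower than GFP, 115 were higher than wild-type IL-23 and 795 were not called against it. Pyy, the gut hormone peptide YY, led the genes higher than both. It was 6.61, 6.24 and 1.7 CPM with GFP, 12.8, 7.22 and 1.32 with wild-type IL-23, and 45.8, 38.7 and 68.3 in the knockout group. The knockout libraries stood above all 6 others (log2 fold changes 3.41 and 2.76, adjusted p = 0.00836 and 0.0201). Pkib, an inhibitor of protein kinase A, had log2 fold changes of 2.09 and 1.14 (adjusted p = 0.00115 and 0.0369). Alox12e, an epidermal lipoxygenase, was 29.2, 38 and 42.1 CPM with GFP, 32.1, 33.7 and 15.9 with wild-type IL-23, and 146, 65.6 and 90.1 in the knockout group (log2 fold changes 1.47 and 1.87, adjusted p = 0.0129 and 0.00645). Among genes lower than both, the peptide transporter Slc15a2 was 10.3, 9.73 and 13.1 CPM with GFP, 11.7, 3.07 and 3.31 with wild-type IL-23, and 0.895, 1.6 and 1.44 in the knockout group (log2 fold changes -3.06 and -2.21, adjusted p = 0.00084 and 0.0126). Haptoglobin (Hp) was 12.5, 22.8 and 27.5 CPM, 19.5, 25 and 11.9 CPM, and 6.49, 7.78 and 6.47 CPM in the same order (log2 fold changes -1.6 and -1.46, adjusted p = 0.00283 and 0.00754).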

How the data were processed

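The authors' deposited tables hold raw counts per Ensembl gene, made with STAR 2.7.0a and featureCounts per the submitters' processing notes. The build named there is GRCh38.p6, which is a human assembly although the identifiers are from mouse, so the build is uncertain. Strand and multi-mapping settings were not given in the sources used here. Deposited edgeR columns of the authors were not used. Symbols and positions came from GENCODE M21 (GRCm38) and promoters from RefSeq (GRCm38.p6; 9521 tested genes matched by symbol).

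In R 4.3.3, edgeR 4.0.16 kept genes by filterByExpr (minimum count 10, minimum total 15), scaled by TMM and fitted 3 group means to 9 libraries by robust quasi-likelihood (6 residual degrees of freedom). Ratios against 1 to 3 counts used pooled CPM with exact intervals, and groups without counts were set to 3 counts over the group. Counts were simulated for this comparison over 13807 genes, of which 13458 passed the filter, with 100 genes changed at each fold in random directions. There 53% of 2-fold and 77% of 4-fold changes were recovered, with 5.80% false among 138 calls. The data held far more calls, and an uneven balance of directions was not simulated, so these rates may not hold for them. Alternatives were DESeq2 1.42.0, voom of limma 3.58.1, other scalings, filters and dispersions, the 6 libraries alone, a replicate block and leaving out each library.

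The comparison and 45 gene lists were chosen with earlier results of these data known. Named genes were the 12 most changed each way with separate groups and a mean of 5 CPM or more, up to 3 a list and direction, set anchor genes of lists, the 10 each way furthest from both other groups, and called genes within 5 Mb of Clec5a. Csf3r, Retnlg, Ly6g, Trac, Sprr1a, Sprr2f, Sprr2k, Klk12, Myh4, Ttn and the ribosomal protein genes were added after their values were seen. Some named genes are not reported here.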

Additional observations from a re-analysis of the deposited data

How the results depend on the processing

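With TMM replaced by upper-quartile scaling, higher genes made up 43.7% of calls in place of 59.4%. Leaving out 1 library at a time gave 1340 to 2580 calls against the GFP group, with 58.2% to 69.5% of them higher, and 1128 to 2802 against the wild-type IL-23 group; the lowest share shared with the full set was 55.4%, without GFP library 3. The 6 libraries alone gave 2313 calls, DESeq2 2391, voom 2538, a minimum count of 30 2227 and no count filter 2827. No gene called in the full set and under one of these alternatives changed direction. The replicate block gave 2682 calls, with 2 of the Lce1 genes higher in place of 6 and 7 clock genes lower in place of 4; library numbers name no shared animal or day, and deviations of same-numbered libraries correlated at -0.0863 to 0.23, so the numbers were not taken as pairs. Of 168 named called genes, 115 kept their call without each library in turn and 53 lost it without at least 1. Depth limits genes below about 0.7 CPM, and the p-values rest on 3 libraries a group. Counts of 1 or 2 genes on a list often changed by 1 gene between alternatives and are descriptions.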

Other observations

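Cytosolic ribosomal protein genes, which encode the protein part of the ribosome, were slightly but widely higher in the knockout group than in the GFP group. The set was picked by symbol after their values were seen. Of 80 tested, 50 were higher than in the GFP group and 0 lower, with a median log2 fold change of 0.42 against -0.02 over all tested genes. Relative to the GFP mean, the median was 0.45, 0.40 and 0.41 on the log2 scale in knockout libraries 1, 2 and 3, and -0.06, 0.06 and 0.00 in the GFP libraries. The wild-type IL-23 group was also above GFP, with a median log2 fold change of 0.24, so the rise was not particular to the knockout group. Against the wild-type IL-23 group the knockout median was 0.19, 20 genes were higher and 3 lower, and 11 were higher than in both groups. Rps23, a small-subunit gene, was 4343, 3894 and 4267 CPM with GFP, 4555, 4300.3 and 4642 with wild-type IL-23, and 6055, 5674 and 5789.6 in the knockout group, above all other libraries (log2 fold changes 0.49 and 0.38, edgeR adjusted p = 0.00659 and 0.0281). Fau, another small-subunit gene, was 465, 516 and 476 CPM with GFP and 645, 691 and 727 CPM in the knockout group (log2 fold change 0.50, edgeR adjusted p = 0.00861). With upper-quartile scaling, which moved the median of all genes to -0.12, 28 were higher and 1 lower, and the median was 0.32. The count was 18 without GFP library 3, 24 without GFP library 1, 27 without knockout library 2, 30 without knockout library 1 and 32 without knockout library 3. Named processed pseudogenes of these genes moved likewise, 60 of 168 higher and 0 lower, and reads of genes and pseudogenes may be shared.

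Of 18 tested inflammatory cytokines and chemokines 4 rose and 1 fell. Il1rn, the IL-1 receptor antagonist, was 34.6, 70.3 and 61.7 CPM with GFP, 283, 308 and 325 with wild-type IL-23, and 132, 147 and 133 in the knockout group, between the other two (log2 fold changes 1.30 and -1.15, edgeR adjusted p = 0.00047 and 0.00223). Of 12 complement genes 1 rose and 2 fell, of 15 polyamine and arginine genes 3 rose, and of 9 hair follicle genes 2 rose and 1 fell. Of 4 erythrocyte genes 0 were called by edgeR or DESeq2, with 0 at an unadjusted p under 0.05. Over all tested genes 10.2% rose and 6.93% fell, and these small lists were not tested against those shares. The complement counts were 0 and 0 without knockout library 2, 0 and 1 without GFP library 3, and 2 and 1 without knockout library 1 or GFP library 2; 1 fell without knockout library 3 or GFP library 1. Of the hair follicle genes, 1 rose without knockout library 1 or GFP library 1, and 2 fell without knockout library 1. The inflammatory gene that fell was not called without knockout library 2 or 3 or GFP library 2 or 3, 2 fell without knockout library 1, and 2 rose at a minimum count of 30.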
